A study of Mus musculus with 12 samples.

Results

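Expression of 10 genes of inflammation was described across bone marrow mesenchymal stem cell (MSC) cultures of control and Chd7 conditional knockout mice: the cytokines Il1a, Il1b, Il6, Il10, Il18 and Tnf, the interleukin 1 receptor antagonist Il1rn, the inflammasome sensor Nlrp3, the itaconate-producing enzyme Acod1 and the secreted protease inhibitor Slpi. They were taken by symbol from a table of 54532 mouse genes. All 10 were present and all 10 reached an FPKM (fragments per kilobase of gene, with sequencing depth divided out) of at least 1 in at least 3 libraries, the filter that left 12871 genes for testing. Il1b, Il6 and Acod1 passed that filter through 3, 3 and 4 libraries, all of them from adipogenic medium, so for these 3 genes a pass already required a high adipogenic value, and counts of calls are also given for the other 6 genes tested. Of these 6, Il10 passed through 4 libraries, and only osteogenic control library 3 among them, at 1.17 FPKM, was not adipogenic. Its pass thus also needed adipogenic values. The first 9 were listed for what they encode, but with earlier results of these data known, so their choice may not be independent of their values. Slpi was selected on its measured genotype difference, which went in opposite directions in the media, so its values are a description and carry no test.

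The study compared MSCs of Chd7fl/fl mice, labelled WT and called control here, with MSCs of Prx1-cre;Chd7fl/fl mice, labelled Chd7 KO and called knockout here, after induction to bone or fat. Both genotypes carry the floxed allele on a C57BL/6 background, and Prx1-cre is active in early limb mesenchyme, so blood-derived cells in a culture are not its target. The cells came from the marrow of femurs, tibiae and humeri of 4-week-old mice, were used at passage 3 and were sampled 5 days after induction, with 3 libraries in each of 4 groups. Osteogenic medium held 50 µM ascorbic acid, 10 nM of the glucocorticoid dexamethasone and 10 mM β-glycerophosphate, and adipogenic medium held 0.5 µM isobutylmethylxanthine, a phosphodiesterase inhibitor, with 1 µM dexamethasone and 10 µg/ml insulin. The sources used here do not say whether the 3 libraries of a group came from separate mice, so p-values measure the spread between these libraries, which may be technical.

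Control library 2 in adipogenic medium stood apart before any inflammatory gene was considered. Its mean correlation across genes with the other controls of that medium was 0.941, against 0.964 or more for every other library with its own group. It was the deepest library, at 21099588 fragments on genes, while the shallowest, in another group, held 17496343. The floxed segment of Chd7 is exon 2, so a gene-level FPKM over all exons cannot show the deletion itself. Osteogenic controls had 2.64, 2.67 and 2.77 FPKM of Chd7 against 2.03, 2.35 and 2.28 FPKM in osteogenic knockouts, and adipogenic controls had 2.26, 1.81 and 2.23 FPKM against 2.03, 2.35 and 2.48 FPKM in adipogenic knockouts. The genotypes overlapped for Chd7 in adipogenic medium. In osteogenic medium they did not, but neither did they for 44.3% of all genes tested. The limma test described below did not call Chd7 there (limma adjusted p = 0.160). These values thus do not check the labels in adipogenic medium and are at most a weak check in osteogenic medium. Every direction given is between libraries as labelled. Beside the label of mesenchymal stem cells, Itgb1 and the stromal genes Pdgfrb and Col1a1 were present in all 12 libraries. Thy1 (CD90), however, stayed between 0.206 and 1.03 FPKM, and the macrophage genes Ptprc, Csf1r, Adgre1 and Cd68 were expressed in all 12. The paper identified its MSCs by surface proteins, CD90 among them, with flow cytometry, whereas the values here are RNA after induction.

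Interleukin 1α and interleukin 1β are alarm cytokines that act through one receptor, and the product of Il1rn occupies that receptor without signalling. Interleukin 1β and interleukin 18 are made as inactive precursors that caspase-1 cuts once an inflammasome, such as that built on NLRP3, has assembled. In macrophages Tnf, Il6, Il1a, Il1b, Nlrp3 and Acod1 are switched on by Toll-like receptors through NF-κB, while Il10 restrains the response and itaconate and SLPI dampen it. In marrow, TNF, interleukin 1 and interleukin 6 are known as stimulators of bone resorption.

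The stretches of 250 bases before the start sites of 4 cytokine genes are shown because these genes moved together across the libraries and are textbook NF-κB targets. They are given 5′ to 3′ on the strand of the gene, from RefSeq on GRCm38.p6, and RefSeq windows were found for 9 of the 10 genes. Capitals mark matches to GGNNTTTCC, part of the NF-κB site, or to TGANTCA, the AP-1 site, searched on both strands.
Il6, chr5:30012864-30013113, plus strand: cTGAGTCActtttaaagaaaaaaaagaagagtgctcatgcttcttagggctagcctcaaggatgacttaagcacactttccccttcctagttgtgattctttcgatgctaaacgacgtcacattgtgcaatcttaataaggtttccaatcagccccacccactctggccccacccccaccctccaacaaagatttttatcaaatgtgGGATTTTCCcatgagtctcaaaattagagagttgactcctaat
Il1a, chr2:129309973-129310222, minus strand: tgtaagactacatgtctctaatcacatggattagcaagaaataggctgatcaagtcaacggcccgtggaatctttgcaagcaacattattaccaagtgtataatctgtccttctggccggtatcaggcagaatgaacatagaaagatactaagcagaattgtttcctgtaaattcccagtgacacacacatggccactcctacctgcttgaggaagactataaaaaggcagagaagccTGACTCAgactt
Il1b, chr2:129371140-129371389, minus strand: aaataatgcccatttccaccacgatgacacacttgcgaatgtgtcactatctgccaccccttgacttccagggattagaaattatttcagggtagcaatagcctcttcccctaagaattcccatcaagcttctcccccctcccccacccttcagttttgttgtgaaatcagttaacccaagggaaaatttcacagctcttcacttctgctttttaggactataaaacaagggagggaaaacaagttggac
Tnf, chr17:35202008-35202257, minus strand: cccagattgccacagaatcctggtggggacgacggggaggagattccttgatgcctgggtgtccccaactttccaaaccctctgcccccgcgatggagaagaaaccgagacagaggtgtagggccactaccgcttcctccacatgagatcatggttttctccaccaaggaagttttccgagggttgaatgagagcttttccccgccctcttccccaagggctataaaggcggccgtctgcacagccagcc
The Il6 window held the NF-κB letters 43 to 35 bases before the start and the AP-1 letters 249 to 243 bases before it. The Il1a window held the AP-1 letters 12 to 6 bases before the start. The Il1b and Tnf windows held neither set of letters, which says only that those letters are not in these 250 bases. Of the windows not shown, 1 of 3 for Il1rn, both for Nlrp3 and that of Acod1 held the NF-κB letters, and another of Il1rn held the AP-1 letters. Of 32851 promoter windows of the same length, 4.93% held the NF-κB letters and 6.75% held the AP-1 letters. The letters of the cyclic AMP response element (TGACGTCA, in 1.55% of windows), the palindromic glucocorticoid response element (in 0.387%) and the STAT site (TTCNNNGAA, in 7.02%) were in no window of the 9 genes.

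In adipogenic medium 9 of the genes, all but Il18, had one shape. Control libraries 1 and 3 were the highest of all 12 libraries, and knockout libraries 2 and 3 were at or below osteogenic levels for all of these but Il1rn, whose adipogenic values were all higher. Control library 1 exceeded every osteogenic library for 10 of 10 genes, control library 3 for 9, knockout library 1 for 8 and control library 2 for 5. Knockout libraries 2 and 3 did so for 1 gene each. As a description over the 12 libraries, Pearson's r between any pair of these 9 genes on the log2(FPKM + 1) scale ran from 0.773 to 0.998, and between Il18 and each of them from -0.24 to 0.07. The points share 4 groups and the same libraries, so these correlations carry no test.

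**Figure D1:**
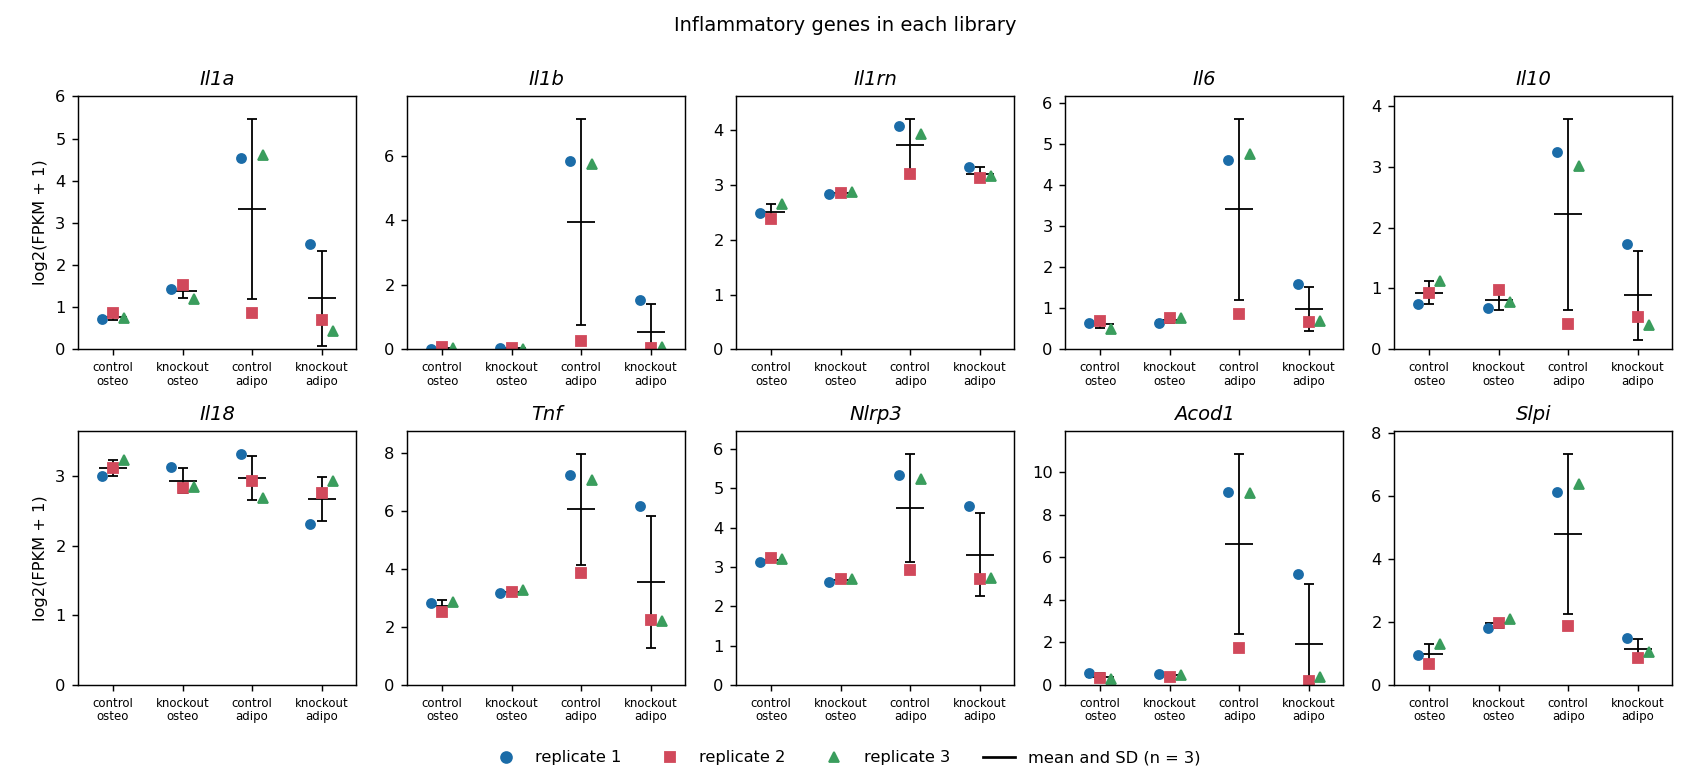
Expression of the 10 genes in each of the 12 libraries as log2(FPKM + 1), with a separate vertical scale from 0 for each gene. Symbols mark the replicate number, the horizontal line is the group mean and the bar its SD (n = 3). In the third group of each panel but that of Il18, control replicates 1 and 3 sit above control replicate 2, and in the fourth group of most panels knockout replicate 1 sits above replicates 2 and 3.

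Il1a (ENSMUSG00000027399, chromosome 2, 129299610 to 129309972 on GRCm38) encodes interleukin 1α. Osteogenic controls held 0.642, 0.814 and 0.688 FPKM and osteogenic knockouts 1.69, 1.88 and 1.28 FPKM. The knockout libraries all lay above the controls there, at 1.62 ± 0.306 FPKM (SD, n = 3) against 0.715 ± 0.0887 FPKM (SD, n = 3), on 46 to 67 fragments against 23 to 27. Adipogenic controls held 22.1, 0.823 and 23.5 FPKM of Il1a and adipogenic knockouts 4.69, 0.618 and 0.347 FPKM. Control library 2 held no more Il1a than an osteogenic culture, and knockout library 1 held more than it did, so the groups overlapped.

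Il1b (ENSMUSG00000027398, chromosome 2, 129364570 to 129371139) lies beside Il1a and encodes interleukin 1β. In osteogenic medium it was all but silent, with 0, 2 and 1 fragments in control and 1, 1 and 0 fragments in knockout libraries, and no fold change is given where both groups are at or under 3 fragments. In adipogenic medium it was at 56.4, 0.2 and 53.1 FPKM in control libraries, on 1766, 8 and 1640 fragments. Knockout libraries held 1.87, 0.0278 and 0.0552 FPKM, on 67, 1 and 2 fragments. Expression was thus found mainly in control libraries 1 and 3, and the lowest control lay below the highest knockout library.

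Il1rn (ENSMUSG00000026981, chromosome 2, 24336853 to 24351494) encodes the receptor antagonist and was expressed in all 12 libraries. Values of 4.59, 4.20 and 5.32 FPKM in osteogenic controls and of 6.14, 6.25 and 6.36 FPKM in osteogenic knockouts did not overlap. The adipogenic controls were at 15.95, 8.17 and 14.3 FPKM and the adipogenic knockouts at 9.10, 7.71 and 8.02 FPKM. Every adipogenic library of either genotype exceeded every osteogenic library, and Il1rn was the one gene of the 10 for which this held. The order of group means was control adipogenic (12.8 ± 4.11 FPKM), knockout adipogenic (8.28 ± 0.732), knockout osteogenic (6.25 ± 0.107) and control osteogenic (4.70 ± 0.565, all SD, n = 3), and only the first pair of neighbours overlapped.

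Il18 (ENSMUSG00000039217, chromosome 9, 50554827 to 50581840) encodes a cytokine whose precursor many cells hold ready. Its FPKM were 7.01, 7.67 and 8.34 in osteogenic controls and 7.77, 6.06 and 6.12 in osteogenic knockouts. They were 8.91, 6.63 and 5.39 in adipogenic controls and 3.98, 5.76 and 6.58 in adipogenic knockouts. Every pair of groups compared overlapped, and the 12 libraries spanned the narrowest range of the 10 genes.

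Il6 (ENSMUSG00000025746, chromosome 5, 30013114 to 30019981) encodes interleukin 6, which signals through gp130. Osteogenic libraries were all low, the controls at 0.568, 0.612 and 0.419 FPKM and the knockouts at 0.550, 0.683 and 0.701 FPKM. Adipogenic controls were far apart, at 23.4, 0.807 and 25.8 FPKM, and adipogenic knockouts held 2.02, 0.590 and 0.607 FPKM. Control libraries 1 and 3 were 43.9 and 48.4 times the mean of the osteogenic controls, control library 2 was 1.51 times and knockout library 1 was 3.78 times that mean.

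Il10 (ENSMUSG00000016529, chromosome 1, 131019845 to 131024974) encodes interleukin 10, which restrains macrophage activation. Osteogenic controls (0.673, 0.908 and 1.17 FPKM) and knockouts (0.595, 0.971 and 0.713 FPKM) overlapped. Adipogenic controls were at 8.45, 0.328 and 7.02 FPKM and adipogenic knockouts at 2.32, 0.445 and 0.321 FPKM. Control library 2 and knockout libraries 2 and 3 held less than every osteogenic library, on 9, 11 and 8 fragments, whereas control libraries 1 and 3 and knockout library 1 held more than all of them.

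Tnf (ENSMUSG00000024401, chromosome 17, 35199381 to 35202007) encodes tumour necrosis factor. The osteogenic knockouts, at 8.02, 8.16 and 8.64 FPKM, all exceeded the osteogenic controls, at 6.12, 4.75 and 6.28 FPKM. Adipogenic controls reached 151, 13.6 and 134 FPKM, and adipogenic knockouts 71.8, 3.72 and 3.66 FPKM. Control library 2 exceeded every osteogenic library here, at 2.37 times the mean of the osteogenic controls, and knockout library 1 reached 12.6 times that mean while knockout libraries 2 and 3 were below it.

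Nlrp3 (ENSMUSG00000032691, chromosome 11, 59541568 to 59566956) encodes the sensor of the best known inflammasome. Osteogenic controls held 7.65, 8.37 and 8.16 FPKM of it and osteogenic knockouts 5.13, 5.49 and 5.47 FPKM. Here the knockout libraries were the lower ones, at 5.36 ± 0.201 FPKM (SD, n = 3) against 8.06 ± 0.370 FPKM (SD, n = 3). Among adipogenic libraries the controls held 39.4, 6.55 and 36.6 FPKM and the knockouts 22.2, 5.44 and 5.55 FPKM. Control library 2 was below every osteogenic control, and knockout library 1 was far above knockout libraries 2 and 3.

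Acod1 (ENSMUSG00000022126, chromosome 14, 103046977 to 103056573) encodes the enzyme that makes itaconate from an intermediate of the citric acid cycle, and it had the widest range of the 10. Osteogenic controls had 0.483, 0.249 and 0.216 FPKM and osteogenic knockouts 0.424, 0.316 and 0.377 FPKM, on 10 to 23 fragments. Adipogenic controls had 546, 2.37 and 525 FPKM and adipogenic knockouts 35.8, 0.121 and 0.281 FPKM. Control libraries 1 and 3 thus held 1725 and 1661 times the mean of the osteogenic controls, knockout library 1 held 113 times and control library 2 held 7.49 times that mean. Knockout libraries 2 and 3 were at 0.384 and 0.888 of it.

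Slpi (ENSMUSG00000017002, chromosome 2, 164354070 to 164389095) encodes an inhibitor of neutrophil elastase and other serine proteases. Osteogenic controls showed 0.935, 0.605 and 1.49 FPKM and osteogenic knockouts 2.50, 2.95 and 3.26 FPKM. Adipogenic controls showed 69.3, 2.67 and 81.8 FPKM and adipogenic knockouts 1.81, 0.809 and 1.07 FPKM. The knockout libraries were all higher than the controls in osteogenic medium and all lower in adipogenic medium, although the margin there was small, with 66 fragments in control library 2 against 40 in knockout library 1. Slpi was the one gene of the 10 whose genotypes did not overlap in adipogenic medium. The log2 difference of knockout against control was 0.98 in osteogenic and -3.66 in adipogenic medium, and leaving out control library 2 made the latter -5.12.

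The first question was whether the genotypes differed in osteogenic medium. Knockout libraries lay wholly above control libraries for Il1a, Il1rn and Tnf and wholly below them for Nlrp3, that is, for 4 of the 9 genes other than Slpi, while the genotypes did not overlap for 44.3% of all genes tested, 21% higher and 23.2% lower. The test was limma on log2(FPKM + 1), fitted to all 12 libraries at once, with p-values adjusted after Benjamini and Hochberg over 12871 genes. It called 0 of the 9 genes, where 9.09% of all genes tested were called, 4.94% higher and 4.15% lower. None of the 9 had an unadjusted p under 0.05, and limma voom on recovered fragments also called 0. The log2 fold changes were 0.60 for Il1a (standard error 0.884, limma adjusted p = 0.752), 0.35 for Il1rn (standard error 0.188, limma adjusted p = 0.305), 0.47 for Tnf (standard error 1.08, limma adjusted p = 0.854) and -0.51 for Nlrp3 (standard error 0.631, limma adjusted p = 0.704). These standard errors took in the spread of the adipogenic libraries.

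In a fit of the 6 osteogenic libraries alone the same 4 genes passed, 3 higher and 1 lower, where 26.6% of all genes did, 13% higher and 13.5% lower. Il1a was higher with a standard error of 0.108 and limma adjusted p = 0.00799, Il1rn with 0.0722 and 0.0139, and Tnf with 0.0924 and 0.0114. Nlrp3 was lower with a standard error of 0.046 and limma adjusted p = 0.000584. With each osteogenic library left out of that fit in turn, 3 to 5 genes passed, where 18.4% to 21.6% of all genes did. The log2 fold changes of Il6 (0.10), Il10 (-0.12), Il18 (-0.19) and Acod1 (0.07) did not pass in this fit either. Beside these differences, the summed level of 24 macrophage and monocyte markers was 16245 to 16775 FPKM in control and 17445 to 17923 FPKM in knockout libraries with the lysozyme gene Lyz2, and 7288 to 7506 against 6388 to 6674 FPKM without it. The part of these cells in the differences was not tested, and fewer cells of a type cannot be told apart from less RNA per cell in bulk cultures.

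In adipogenic medium the fold changes were larger, and most did not pass. Of the 9 genes tested, limma called 1, where it called 33.2% of all genes, 16.7% higher and 16.5% lower. Those shares are 2153 and 2123 genes, a split that became 3252 and 900 after each library was rescaled to the same sum of FPKM. Il6 fell by 2.42 on the log2 scale (standard error 0.829, limma adjusted p = 0.0468), and as Il6 entered the test through adipogenic libraries alone, nothing is read from this count against the share of all genes. Of the 6 genes other than Il1b, Il6 and Acod1, with Il10 among them, limma called 0. Il1b (log2 fold change -3.41 with a standard error of 1.20, limma adjusted p = 0.0522) and Il1rn (-0.53, standard error 0.188, limma adjusted p = 0.0535) missed the threshold narrowly. Acod1 (-4.72, limma adjusted p = 0.0747), Il1a (-2.13, 0.0896), Tnf (-2.52, 0.0998), Il10 (-1.33, 0.134) and Nlrp3 (-1.18, 0.174) did not pass, nor did Il18 (-0.31, 0.221). The genotypes overlapped for all 9, while they did not overlap for 38.6% of all genes tested, 20.2% higher and 18.4% lower.

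The result in adipogenic medium rested on single libraries. Without control library 2, limma called 8 of the 9 genes lower in knockout libraries, where it called 51% of all genes and 26.8% lower, and 5 of the 6 genes just described were among them, with log2 fold changes of -7.16 for Acod1, -5.25 for Il1b, -3.70 for Il6, -3.61 for Tnf, -3.36 for Il1a, -2.23 for Il10, -1.97 for Nlrp3 and -0.80 for Il1rn. The 5 include Il10, whose pass also needed adipogenic values, so these counts are not read against those shares. Without knockout library 1 it called 4 of 9 lower, Tnf, Acod1, Nlrp3 and Il1a, where it called 29.9% of all genes and 14.6% lower, and the call of Il6 was lost (limma adjusted p = 0.0581). Acod1 was among these 4, and of the 6 genes 3 were called. Without any one of the other 4 adipogenic libraries, and in a fit of the 6 adipogenic libraries alone, 0 of the 9 passed limma's threshold. That smaller fit called 13% of all genes, 7.87% higher and 5.11% lower. All 9 fold changes were negative in each of these fits. Beside them, the macrophage marker sum was 21123, 11188 and 20916 FPKM in control libraries 1, 2 and 3 and 9153 to 10709 FPKM in knockout libraries, and without Lyz2 it was 5731 to 7244 against 5309 to 5699 FPKM. The part of these cells was not tested.

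**Figure D2:**
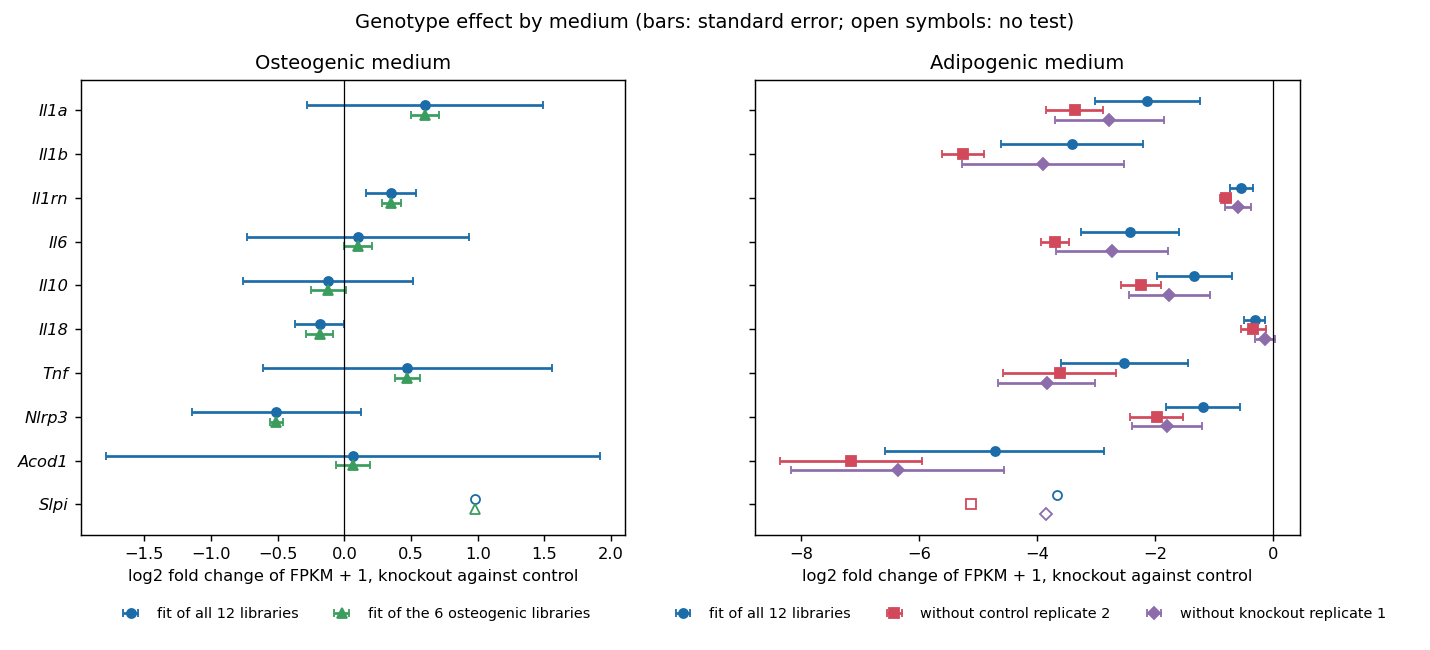
Log2 fold change of FPKM + 1 in knockout against control libraries for the 10 genes, in osteogenic medium (left) and adipogenic medium (right, on a wider scale). Points are limma estimates with bars of 1 standard error, from all 12 libraries or from the subsets named in the legend, and open symbols for Slpi carry no test. Il1b has no point on the left because both groups were at or under 3 fragments. On the left the estimates of both fits coincide and the bars of the 6-library fit are the shorter, and on the right leaving out control replicate 2 moves Acod1 from -4.72 to -7.16.

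Whether the genotype difference itself differed between media was tested by the interaction term. It was called for 1 of the 9 genes, where it was called for 20.4% of all genes tested, 9.58% lower. For Il1rn the genotype difference was lower in adipogenic than in osteogenic medium by 0.88 on the log2 scale, with a standard error of 0.266 and limma adjusted p = 0.0419. Without control library 2 in adipogenic medium the interaction was called for 7 of the 9 genes, all but Nlrp3 and Il18, where 42.2% of all genes were called, 22.5% lower. The 7 include Acod1, Il1b and Il6, and of the other 6 genes 4 were called, Il10 among them. These counts are not read against those shares. Without any one of the other libraries apart from knockout library 1 in adipogenic medium the interaction was called for 0, and without the latter it was called for Tnf alone, at -4.31 (limma adjusted p = 0.0263), where 19.7% of all genes were called, 8.95% lower.

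The effect of medium was then compared within each genotype. In control libraries, adipogenic values lay wholly above osteogenic ones for 6 of the 9 genes other than Slpi, and for 3 of the 6 other than Acod1, Il1b and Il6, where 16.2% of all genes did and 34.4% did not overlap in either direction. The test called 4 of 9 higher, where it called 10.5% of all genes higher and 22.8% in all. For 3 of the 4, Acod1, Il1b and Il6, the filter itself required high adipogenic values, so this count is not read against that share, and of the other 6 genes 1 was called. These were Acod1 (log2 difference 6.24, standard error 1.85, limma adjusted p = 0.0378), Il1b (3.91, 1.20, 0.0424), Il6 (2.79, 0.829, 0.0377) and Il1rn (1.23, 0.188, 0.00245). The value for Il1b depends on the pseudocount, since osteogenic libraries held at most 2 fragments. Without control library 2 the count was 8 of 9, and 5 of those 6, where 47.8% of all genes were called and 24.5% higher, and without any one of the other 5 control libraries it was 1. Il10 was among those 5, so the counts without control library 2 are not read against those shares. In a fit of the 6 control libraries alone limma called 0 of the 9, with 6 at an unadjusted p under 0.05, where it called 3.81% of all genes and 1.38% higher.

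In knockout libraries limma called 0 of 9 genes between the media, where it called 27.9% of all genes, and 0 of 9 had an unadjusted p under 0.05. Adipogenic and osteogenic values did not overlap for Il1rn, which was higher, that is, for 1 of the 9 genes other than Slpi, against 52.5% of all genes tested, 26% higher and 26.5% lower. For Il1rn the log2 difference was 0.35 with a standard error of 0.188 and limma adjusted p = 0.195, which passed in a fit of the 6 knockout libraries alone (standard error 0.0626, limma adjusted p = 0.00621), where 37.4% of all genes did. Both genotype comparisons and both medium comparisons share libraries with each other, so their values stand side by side and are not independent.

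The receptors and decoys of the interleukin 1 and interleukin 18 family were described from a list of 15 genes, of which 6 passed the filter. In osteogenic medium 2 rose and 1 fell in knockout libraries and in adipogenic medium 1 rose and 2 fell, with medians of -0.01 and -0.29 against -0.01 and -0.01 over all genes tested. Without control library 2 in adipogenic medium 5 fell there, and among its 6 libraries alone 0 rose and 0 fell, with 3 of the 6 at an unadjusted p under 0.05. For this and the later lists, the shares of all genes called are the background. They were 4.94% higher and 4.15% lower in osteogenic and 16.7% and 16.5% in adipogenic medium. In the fits of 6 libraries they were 13% and 13.5% in osteogenic and 7.87% and 5.11% in adipogenic medium. Without control library 2 in adipogenic medium 51% were called, 26.8% lower. No list was tested as a set. Il18bp, the secreted decoy that binds interleukin 18, fell in both media, from 10.3, 12.0 and 10.6 FPKM to 7.21, 5.92 and 6.35 FPKM in osteogenic medium (log2 fold change -0.68, limma adjusted p = 0.0376) and from 7.18, 3.60 and 5.75 FPKM to 2.67, 2.77 and 3.20 FPKM in adipogenic medium (-0.71, limma adjusted p = 0.0113). The libraries did not overlap in either medium. Il1rl1, the receptor of interleukin 33, rose in osteogenic medium (0.62, limma adjusted p = 0.0186) and fell in adipogenic medium (-0.57, limma adjusted p = 0.00959), where control library 2 held the most, 8.93 FPKM. Il18rap, a chain of the interleukin 18 receptor, rose in both, by 0.31 and 0.30 (limma adjusted p = 0.0250 and 0.0112). It passed the filter through 7 libraries, and only osteogenic control library 1 among them, at 1.06 FPKM, was a control. Its pass thus needed high knockout values, so the counts of this list that rose are not read against the shares of all genes. The osteogenic calls were lost under 8 of 14 alternatives for Il18bp and under 7 for Il1rl1 and Il18rap. Il1r1, the signalling receptor, stayed between 0.747 and 2.44 FPKM in all 12 libraries, and the decoy Il1r2, the chain Il18r1 and Il33 were each under 0.25 FPKM throughout.

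The inflammasome list held 16 genes, and all 16 passed the filter. In osteogenic medium 1 rose and 3 fell, with a median of -0.19, and in adipogenic medium 0 rose and 9 fell, with a median of -0.61. In the fits of only the 6 libraries compared these counts were 2 and 8 in osteogenic and 0 and 3 in adipogenic medium. The shares of all genes that fell were 4.15% and 16.5%, and 13.5% and 5.11% in those smaller fits. Panx1, a channel that releases ATP, showed the clearest difference, and it did not have the shape of the cytokines. Osteogenic controls were at 9.96, 9.96 and 9.92 FPKM and osteogenic knockouts at 9.68, 9.68 and 9.36 FPKM, while adipogenic controls were at 10.4, 10.0 and 11.4 FPKM and adipogenic knockouts at 3.69, 3.98 and 3.63 FPKM. Control library 2 stood with the other controls and knockout library 1 with the other knockouts. It fell by 1.28 on the log2 scale (standard error 0.0505, limma adjusted p = 3.36e-07) and passed under all 14 alternatives.

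Sensors other than NLRP3 followed control libraries 1 and 3 in part. Nlrc4, which senses flagellin together with NAIP proteins, was at 6.28, 2.28 and 7.04 FPKM in control and 3.11, 1.55 and 1.56 FPKM in knockout libraries in adipogenic medium (log2 fold change -0.95, limma adjusted p = 0.0344). Naip2 fell by 1.03 (limma adjusted p = 0.0164) and Naip5 by 0.61 (limma adjusted p = 0.000306), and these near-identical paralogs can share reads, so which of them changed is uncertain. Nlrp1b, which has a close paralog too, rose by 0.66 in osteogenic medium (limma adjusted p = 0.0378), a call lost under 9 of 14 alternatives. The adipogenic calls of Nlrc4 and Naip2 were lost under 7 and 5. In osteogenic medium Txnip, a binding partner of NLRP3, fell by 0.61 (limma adjusted p = 0.000568), Aim2, a DNA sensor, by 0.39 (limma adjusted p = 0.00501) and Naip5 by 0.40 (limma adjusted p = 0.00989).

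Of the shared machinery, Gsdmd, which encodes the pore-forming gasdermin D, was at 32.3, 20.6 and 29.9 FPKM in control and 22.4, 13.8 and 13.7 FPKM in knockout libraries in adipogenic medium (log2 fold change -0.71, limma adjusted p = 0.0175). Casp1, the protease that matures interleukin 1β, was at 44.5, 30.6 and 43.3 against 30.8, 25.6 and 25.0 FPKM (-0.51, limma adjusted p = 0.0143). In both genes knockout library 1 was above control library 2, and each call was lost under 5 of 14 alternatives. Neither Pycard, the adaptor (-0.01, limma adjusted p = 0.964), nor Nek7, the NLRP3 partner (-0.05, limma adjusted p = 0.670), passed, and Casp4 did not either (-0.69, limma adjusted p = 0.234).

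**Figure D3:**
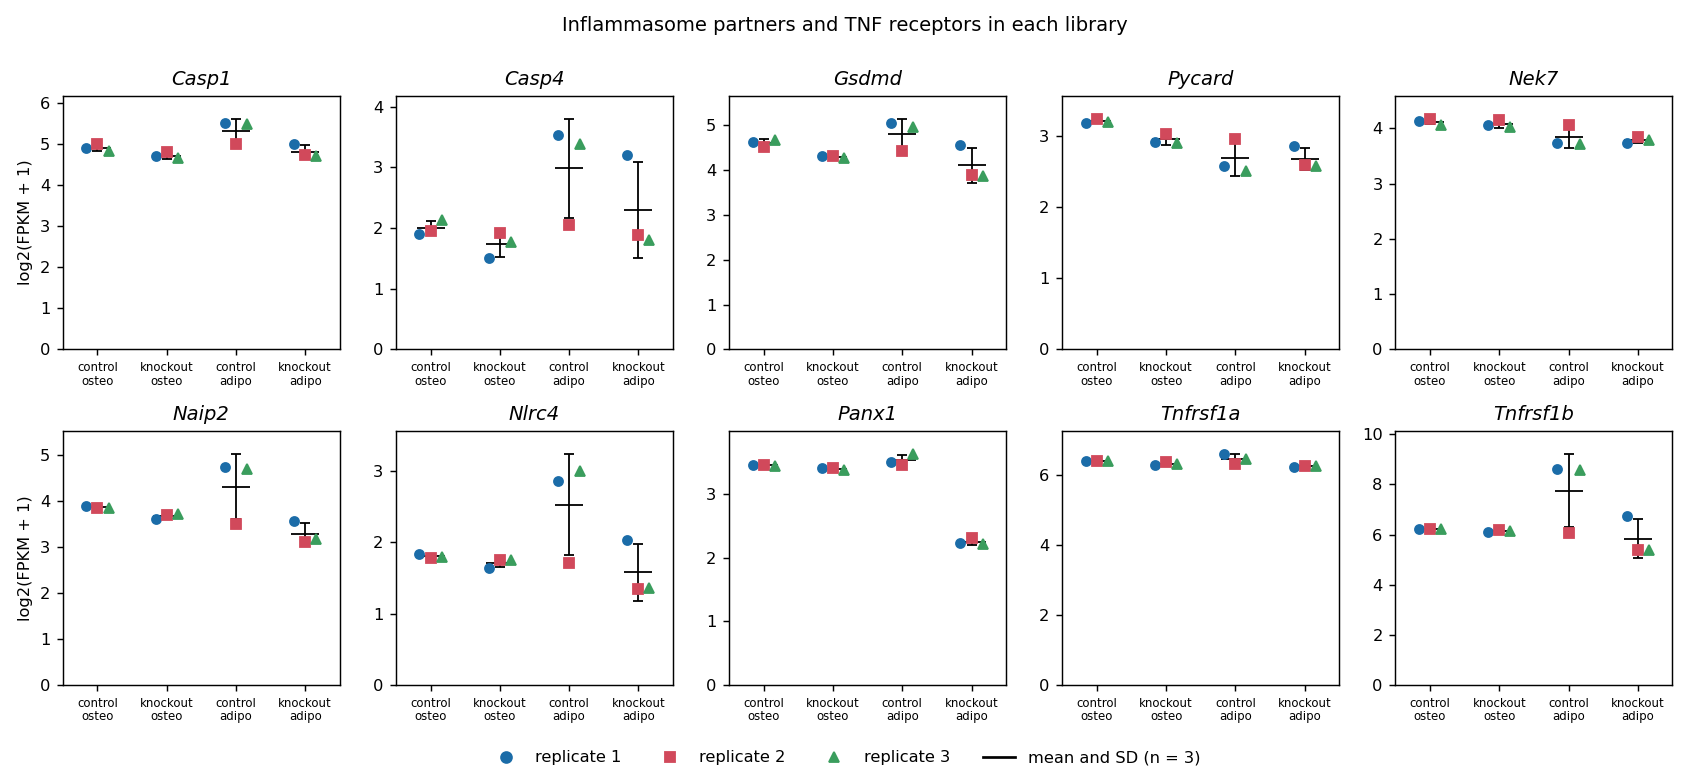
Expression of 8 inflammasome genes and both TNF receptor genes in each of the 12 libraries as log2(FPKM + 1), with a separate vertical scale from 0 for each gene. Symbols mark the replicate number, the line is the group mean and the bar its SD (n = 3). Panx1 is low in all 3 knockout libraries of adipogenic medium, whereas Tnfrsf1b, Nlrc4 and Casp4 are high mainly in control replicates 1 and 3 and, less so, knockout replicate 1.

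Receptors and relatives of interleukin 6 and interleukin 10 made up a list of 16 genes, of which 14 passed the filter. In osteogenic medium 0 rose and 3 fell, and in adipogenic medium 2 rose and 6 fell, with medians of -0.02 and -0.27. In fits of only the 6 libraries compared, 2 rose and 4 fell in osteogenic and 2 rose and 0 fell in adipogenic medium. Of all genes, 4.15% fell in osteogenic and 16.5% in adipogenic medium, and 13.5% and 5.11% in those smaller fits. Il6st, which encodes gp130, rose in adipogenic medium, from 15.5, 16.3 and 15.3 FPKM to 24.8, 26.2 and 25.5 FPKM, with no overlap (log2 fold change 0.67, limma adjusted p = 4.4e-06). Lifr, a gp130 partner, rose from 3.33, 4.30 and 3.29 FPKM to 5.59, 7.93 and 7.32 FPKM (0.77, limma adjusted p = 0.000863). Both passed under all 14 alternatives. Il11 fell by 1.07 (limma adjusted p = 0.00894), Il10ra by 0.71 (limma adjusted p = 0.00726) and Osm by 0.73 (limma adjusted p = 0.0279), and these 3 did not pass among the 6 adipogenic libraries alone. Socs1, a feedback inhibitor, fell by 0.91 (limma adjusted p = 0.0471) and did not pass under 10 of the 14 alternatives. It passed the filter through 4 libraries, adipogenic controls 1 and 3 among them, so its pass needed a high adipogenic control value. The count of this list that fell in adipogenic medium includes Socs1 and is not read against the share of all genes. In osteogenic medium Il6ra fell by 0.55 (limma adjusted p = 0.00348), Il10rb by 0.30 (limma adjusted p = 0.0296) and Il6st by 0.18 (limma adjusted p = 0.0218), and the calls of the latter pair were lost under 8 and 7 of 14 alternatives.

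Of 14 TNF receptors, relatives and signalling genes 9 passed the filter. In osteogenic medium limma called 0 of them, with 1 at an unadjusted p under 0.05, and called 1 lower among the 6 osteogenic libraries alone. In adipogenic medium 0 rose and 4 fell, and the latter became 7 without control library 2 and 0 among the 6 adipogenic libraries alone, with 3 at an unadjusted p under 0.05. The medians were -0.02 and -0.47. Of all genes, 16.5% fell in adipogenic medium, 26.8% without control library 2 and 5.11% among the 6 libraries alone. Tnfsf11, which encodes the osteoclast factor RANKL, was at 9.04, 1.92 and 10.7 FPKM in control and 1.17, 0.759 and 0.518 FPKM in knockout libraries, without overlap (log2 fold change -1.96, limma adjusted p = 0.00570). Tnfrsf1b, the inducible receptor, was at 391, 66.1 and 377 FPKM against 106, 40.4 and 40.8 FPKM, and its shape was that of Tnf (-1.91, limma adjusted p = 0.0343). Tnfrsf1a, the constitutive receptor, was at 94.9, 78.8 and 87.4 against 74.1, 75.1 and 75.9 FPKM (-0.21, limma adjusted p = 0.0219), and Ripk1 fell by 0.19 (limma adjusted p = 0.0208). Both calls were lost under 7 of 14 alternatives, and with TPM the values were -0.02 (limma adjusted p = 0.830) and -0.02 (limma adjusted p = 0.888). That of Tnfrsf1b was lost under 6.

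Among 28 genes of Toll-like receptor and NF-κB signalling, all of which passed the filter, 0 rose and 4 fell in osteogenic medium and 1 rose and 6 fell in adipogenic medium, with medians of -0.10 and -0.47. Without control library 2 in adipogenic medium 2 rose and 21 fell there, and among its 6 libraries alone 1 rose and 0 fell, while 4 rose and 11 fell among the 6 osteogenic libraries. The shares of all genes that fell were 4.15% in osteogenic and 16.5% in adipogenic medium. They were 26.8% without control library 2, 5.11% among the 6 adipogenic and 13.5% among the 6 osteogenic libraries. In osteogenic medium the 4 that fell were Tlr7, an endosomal receptor of RNA, from 55.0, 58.7 and 56.4 FPKM to 23.7, 24.4 and 23.8 FPKM (log2 fold change -1.21, limma adjusted p = 0.000630), Tlr9 (-0.82, limma adjusted p = 0.00660), Tlr13 (-0.73, limma adjusted p = 0.0194) and Tlr4, the receptor of lipopolysaccharide (-0.33, limma adjusted p = 0.0243). Tlr7 was also the 1 gene that rose in adipogenic medium, from 24.8, 20.8 and 26.5 FPKM to 33.3, 49.3 and 48.8 FPKM (0.82, limma adjusted p = 0.00142), and it passed under all 14 alternatives in both media. Tlr1 (-1.50, limma adjusted p = 0.0282), Nfkbid (-0.96, limma adjusted p = 0.0130) and Tlr3 (-0.56, limma adjusted p = 0.0436) fell in adipogenic medium, none of them among the 6 adipogenic libraries alone. The calls of Tlr3 in adipogenic and of Tlr4 in osteogenic medium were lost under 9 and 8 of 14 alternatives, and those of Tlr1 and Tlr13 under 6.

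Effector genes of inflammation formed a list of 16, of which 12 passed the filter. In osteogenic medium 0 rose and 1 fell, and in adipogenic medium 1 rose and 3 fell, with medians of -0.00 and -1.51. Without control library 2 in adipogenic medium, 1 rose and 10 fell, and among the 6 adipogenic libraries 1 rose and 0 fell, while 4 rose and 2 fell among the 6 osteogenic libraries. Of all genes, 16.5% fell in adipogenic medium, 26.8% without control library 2 and 5.11% among the 6 adipogenic libraries. Among the 6 osteogenic libraries 13% rose and 13.5% fell. Hmox1, which encodes a haem-degrading enzyme, was at 2208, 565 and 2236 FPKM in control and 532, 389 and 443 FPKM in knockout libraries (log2 fold change -1.64, limma adjusted p = 0.0149). Ptgs2, the inducible prostaglandin synthase, fell by 1.00 (limma adjusted p = 0.0187) and Ier3 by 1.50 (limma adjusted p = 0.0284). These 3 calls were lost under 4, 4 and 6 of 14 alternatives. Sphk1, a sphingosine kinase, changed in both media. It fell from 7.09, 6.59 and 7.30 FPKM to 4.09, 3.55 and 3.50 FPKM in osteogenic medium (-0.76, limma adjusted p = 0.00277) and rose from 3.94, 2.53 and 3.54 FPKM to 12.5, 10.9 and 11.6 FPKM in adipogenic medium (1.56, limma adjusted p = 1.14e-05), and passed under all 14 alternatives in each.

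Slpi belongs to the secreted defence proteins, of which a list of 14 others was described and 4 passed the filter. In osteogenic medium 1 rose and 1 fell, and in adipogenic medium 2 rose and 2 fell, with medians of -0.01 and 0.07. Among the 6 libraries of each medium alone 2 rose and 1 fell in osteogenic and 1 rose and 0 fell in adipogenic medium. Chil3, a chitinase-like macrophage protein, fell from 10.3, 8.75 and 7.97 FPKM to 3.07, 2.78 and 3.23 FPKM in osteogenic medium (log2 fold change -1.31, limma adjusted p = 2.3e-05) and rose from 1.08, 0.937 and 0.983 FPKM to 4.73, 4.58 and 4.45 FPKM in adipogenic medium (1.48, limma adjusted p = 2.23e-06). These directions are the reverse of those of Slpi, and the libraries did not overlap in either medium. Wfdc17, which shares the whey acidic protein fold with SLPI, rose in both media, by 1.15 (limma adjusted p = 0.00216) and 0.74 (limma adjusted p = 0.00667). In adipogenic medium Lyz2 fell by 1.28 (limma adjusted p = 0.00991). Serpinb2, an inhibitor of plasminogen activators, was at 18.4, 10.2 and 19.2 FPKM in control and 10.7, 8.36 and 10.2 FPKM in knockout libraries there (-0.61, limma adjusted p = 0.0450), and it did not pass under 9 of the 14 alternatives.

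Cell type markers moved with the cytokines in adipogenic medium, in more than one direction. Adgre1 (F4/80) was at 1171, 227 and 1136 FPKM in control and 255, 130 and 127 FPKM in knockout libraries, and Cd14 was at 269, 26.2 and 267 FPKM against 121, 32.4 and 37.8 FPKM. Both were highest in control libraries 1 and 3 and next in knockout library 1, as Il1a, Il6 and Tnf were, but Cd14 was lowest in control library 2. Mrc1, the mannose receptor, was at 36.8, 107 and 35.7 FPKM against 62.6, 110 and 101 FPKM, and Cd68 was at 517, 861 and 491 FPKM against 612, 592 and 617 FPKM. Those 2 markers were thus lowest in the libraries where the cytokines were highest. Of the 22 macrophage and monocyte markers tested, 4 rose and 11 fell in adipogenic medium and 1 rose and 6 fell in osteogenic medium, with medians of -0.46 and -0.19. Among the 6 libraries of each medium alone these counts were 2 and 4, and 3 and 15. Of all genes, 16.7% rose and 16.5% fell in adipogenic and 4.94% and 4.15% in osteogenic medium. Among the 6 libraries alone the shares were 7.87% and 5.11%, and 13% and 13.5%. In every library 21 or 22 of the 24 markers listed were at 1 FPKM or more. The list holds Lyz2, which the defence list holds too, and Ccr2 and Ly6c2 were below 1 FPKM in all 12 libraries.

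Neutrophil markers summed to 131 and 154 FPKM in the highest pair of control libraries in adipogenic medium and to 19.5 FPKM in control library 2, against 8.69 to 12.1 FPKM in knockout libraries. S100a8 was at 65.8, 2.48 and 86.0 FPKM in control and 1.99, 1.22 and 1.82 FPKM in knockout libraries. Csf3r (7.93 FPKM) and Mmp8 (8.87 FPKM) made up most of the sum in control library 2, while S100a9 was listed at 0 in all 12 libraries and Ly6g was at most 0.0507 FPKM. In osteogenic medium the sum was 27.7 to 28.1 FPKM in control and 34.5 to 37.7 FPKM in knockout libraries. Other marker sums differed between genotypes too. In osteogenic medium they were higher in knockout libraries without overlap for endothelial markers (13.3 to 14.4 against 7.06 to 7.51 FPKM), dendritic markers (12.8 to 13.7 against 7.71 to 8.23 FPKM), osteoclast markers (126 to 128 against 103 to 108 FPKM), mast cell and basophil markers (16.9 to 22.1 against 12.1 to 15.02 FPKM) and lymphocyte markers (6.25 to 7.30 against 4.29 to 5.12 FPKM). In adipogenic medium endothelial markers were higher in knockout libraries (10.1 to 12.4 against 6.64 to 7.02 FPKM), while osteoclast (87.4 to 95.6 against 99.3 to 100.4 FPKM), mast cell and basophil (6.84 to 7.65 against 11.2 to 18.3 FPKM) and lymphocyte markers (1.97 to 2.60 against 4.34 to 4.76 FPKM) were lower, and dendritic markers overlapped (4.17 to 4.49 against 1.41 to 6.62 FPKM). The narrow osteoclast sum hid opposite moves. Acp5 was at 35.2, 2.57 and 33.6 FPKM in adipogenic controls and 9.31, 3.61 and 3.53 FPKM in knockouts. Atp6v0d2 was at 2.11, 36.2 and 2.61 FPKM against 16.3, 30.2 and 29.7 FPKM. Of 5 endothelial markers tested 3 rose in each medium, where 4.94% of all genes rose in osteogenic and 16.7% in adipogenic medium. Emcn passed the filter through 6 libraries, all of them knockout, and Pecam1 and Cdh5 passed it only with knockout libraries counted. A pass of these genes thus needed high knockout values, so these counts are not read against those shares. Cd3d and Cd3e were listed at 0 and Calcr was at most 0.0283 FPKM. In no library was more than 1 of the 12 lymphocyte, 8 mast cell and basophil or 8 dendritic markers at 1 FPKM or more. Those sums were mostly Cd4, Mcpt8 and Itgax, at 4.51 of 4.74, 14.8 of 14.9 and 7.59 of 8.05 FPKM in osteogenic control library 1. They thus describe these genes and do not show that those cell types were present or differed. In each library 3 or 4 of the 12 neutrophil and 1 to 4 of the 10 endothelial markers were at 1 FPKM or more. The neutrophil and endothelial sums likewise describe a few genes and do not show that those cell types were present or differed. Stromal markers summed to 1720 to 2028 FPKM in control and 1862 to 1913 FPKM in knockout libraries in adipogenic medium, and to 1344 to 1526 and 1510 to 1668 FPKM in osteogenic medium. The part of any of these cells in the cytokine values was not tested.

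**Figure D4:**
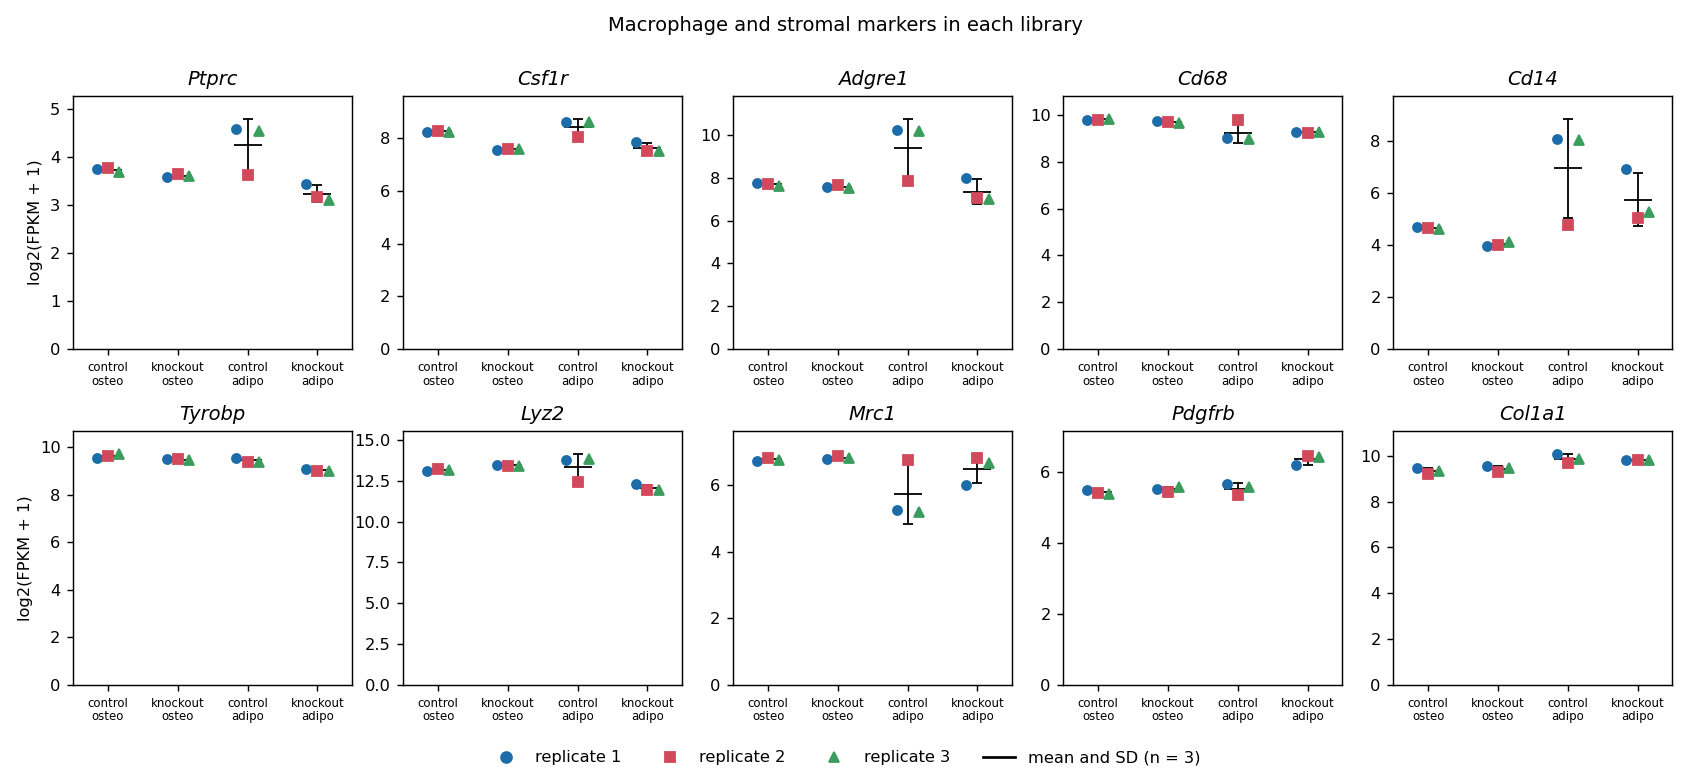
Expression of 8 macrophage or leukocyte markers and the stromal genes Pdgfrb and Col1a1 in each of the 12 libraries as log2(FPKM + 1), with a separate vertical scale from 0 for each gene. Symbols mark the replicate number, the line is the group mean and the bar its SD (n = 3). In adipogenic medium control replicates 1 and 3 are above control replicate 2 for Adgre1 and Cd14 and below it for Cd68 and Mrc1.

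The genes most like each of the 10 were found by Pearson's r of log2(FPKM + 1) over the 12 libraries among all other genes tested, as a description. For Il1a they were Nfkbiz, Spic and Rhoq (r of 0.993 to 0.990), for Il1b Slc13a3, Cp and Irak3 (0.998 to 0.995), and for Il6 Slc13a3, Slc7a11 and Ero1l (0.997 to 0.995). For Tnf they were Relb, Icam1 and Gpr84 (0.996 to 0.992), for Nlrp3 Birc3, Adam17 and St3gal1 (0.993 to 0.992), and for Acod1 Tnip3, Sod2 and Cxcl2 (0.998 to 0.996). Il10 was nearest to Cflar, Snx10 and Acp2 (0.992 to 0.986) and Slpi to Procr, Sdc1 and Ywhag (0.993 to 0.992). The values were lower for Il1rn, with Psmd3, Wdr1 and Slco2a1 (0.971 to 0.970), and lowest for Il18, with Ubap2l, Ankle2 and Ppp6r3 (0.869 to 0.843). The high values rest on the few libraries in which these genes were far above the rest.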

How the data were processed

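Expression was measured by RNA-seq in MSC cultures labelled WT (Chd7fl/fl) or Chd7 KO (Prx1-cre;Chd7fl/fl), sampled on day 5 of osteogenic or adipogenic induction. Each of the 4 groups held 3 libraries, assigned from the labels. What the authors deposited is 1 table of FPKM for the 12 libraries. The submitters' processing notes name Bowtie 0.12.2 and mm9, while the paper's reporting summary lists HISAT2 and Ballgown among its software, and the annotation and the use of strand are not given in the sources used here. FPKM are not counts, so no count model was the main test.

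Symbols, exonic lengths and coordinates came from GENCODE M21 (GRCm38), which named 54409 of the 54532 identifiers (99.8%). With its lengths, 98.2% to 98.4% of a library's values under 30 fragments came out within 0.02 of a whole number of fragments. This gave fragment numbers and, per library, 17496343 to 21099588 fragments on genes. A gene of 1 kilobase with 3 fragments would have 0.143 to 0.185 FPKM. Fragments are not independent molecules, so precision from them covers counting error only.

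The 12871 genes that reached 1 FPKM in 3 or more libraries were fitted on log2(FPKM + 1) in R 4.3.3 by limma 3.58.1, using 4 group means and a trend of variance on mean, and a Benjamini-Hochberg adjusted p under 0.05 was a call. This scale understates changes of genes with low values. With 3 libraries a group no exact permutation test of a single gene could pass, so none was used. The procedure was tested on simulated data. The simulation gave all libraries the same spread and none that stood apart, so it cannot show how the fit behaves on groups as unequal as these. Other settings tried were a pseudocount of 0.1, no filter, rescaling to the same sum of FPKM (TPM), median ratio scaling, no trend, a block on the replicate number, a fit of only the libraries compared, limma voom on recovered fragments and each library left out in turn. Leaving out each library among only those compared was added after seeing the data. TPM moved the median log2 fold change of all genes tested by 0.15 for genotype in adipogenic medium, 0.16 for the interaction and -0.11 for medium in control libraries. Figures were drawn in Python 3.11.15 with matplotlib 3.10.9.

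The 10 genes, the pathway and marker lists and the tests were chosen with earlier results of these data known. Named are the 10 genes, Chd7, up to 4 genes with the largest change among those called in each list and medium, the receptors, adaptors and binding proteins of the 10, the defining markers and the 3 genes most like each of the 10. Mrc1, Cd14, Csf3r, Mmp8, Cd4, Mcpt8, Itgax, Atp6v0d2 and the 4 promoters shown were chosen after their values were seen. The NF-κB letters searched were shortened by the leading G after the matches of the longer form, in the windows of Il6 and Il1rn alone, had been seen. 1 gene of the defence list is not reported here.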

Additional observations from a re-analysis of the deposited data

Results flagged for a closer look

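The genotype difference of Il1rn was lower in adipogenic than in osteogenic medium by a log2 value of -0.8798 (limma interaction, standard error 0.266, adjusted p = 0.0419). Knockout libraries were above all 3 controls in osteogenic medium, and in adipogenic medium they were below control libraries 1 and 3, with 1 of the 3 above control library 2. The call was lost without any one of the other 11 libraries, at adjusted p up to 0.0936, and without control library 2 in adipogenic medium the value was -1.15 (limma adjusted p = 5.8e-05). It was also lost with no filter (0.0911) and with voom (0.0553), and over the alternatives that left out no library the adjusted p ran from 0.0342 to 0.0911.

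For Slpi all 3 knockout libraries were above the controls in osteogenic medium and all 3 were below them in adipogenic medium. The difference of these genotype differences, adipogenic minus osteogenic, was -4.641 on the log2 scale. It was not tested, because the gene had been listed for that reversal.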

How the results depend on the processing

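Of the 9 genes tested, the number called between genotypes in osteogenic medium was 0 with each library left out of the full fit and 4 in the 6-library fit, where it ran from 3 to 5 with 1 library left out (2365 to 2780 of all genes). In adipogenic medium it was 1, and became 0 with a pseudocount of 0.1, with no filter, with voom and in the 6-library fit, and 2 with TPM. It ran from 0 to 8 with 1 library left out, and from 0 to 7 in the 6-library fit (114 to 5267 of all genes). The interaction went from 1 to 0 with no filter and with voom, and from 0 to 7 with 1 library left out. For medium in control libraries 4 became 1 with no filter or voom and 0 in the 6-library fit, and ran from 1 to 8 with 1 library left out and from 0 to 8 in the smaller fit (0 to 5923 of all genes). For medium in knockout libraries 0 became 1 in the 6-library fit, where leaving 1 library out gave 1 to 3 (3435 to 5127 of all genes). Over all genes, the 1170 calls in osteogenic medium became 526 with TPM, 3418 in the 6-library fit and 532 to 670 with 1 library left out. The 4276 in adipogenic medium became 1671 and 2791 to 6569, the 2630 of the interaction 1798 to 5434, and the 2935 for medium in control libraries 490 and 1361 to 6156.

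The replicate numbers were not shown to pair the libraries, since correlations of deviations between same-numbered libraries ran from -0.29 to 0.47. With the replicate number as a block, 5 of the 9 genes were called in adipogenic medium, where 3889 of all genes were (30.2%), and 1 for medium in control libraries, and 744 and 1943 of all genes were called for genotype in osteogenic medium and for medium in control libraries. The 5 were Acod1, Il1b and Il6 with 2 of the other 6 genes, Tnf and Il1rn.

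Values that turned sign follow. For Il18 the interaction became 0.046 with TPM, 0.0472 without adipogenic control 1 and 0.0535 without adipogenic knockout 1, ranging from -0.2697 with 1 library left out, and the medium difference in controls ran from -0.3105 to 0.0064. With 1 adipogenic knockout left out, the medium difference in knockout libraries ran from -0.8188 to 0.2213 for Il1a (0.0888 without library 2), -0.0401 to 0.4222 for Il6, -0.3427 to 0.3213 for Il10, -0.9827 to 1.0001 for Tnf and -0.1948 to 2.3228 for Acod1, the lowest always without library 1. For Il10 it was -0.0407 with a pseudocount of 0.1 and -0.095 with voom. Of the pathway genes named, 17 were called between genotypes in osteogenic and 33 in adipogenic medium, of which 8 and 7 were called under all 14 alternatives, and 0 turned sign. The cause of these shifts was not tested. Depth limits Il1b and Acod1 in osteogenic medium, where they rest on 0 to 23 fragments. It also limits Il6 (18 to 31 fragments) and Il10 (14 to 27) there, and Il1a (23 to 27) and Slpi (12 to 31) in osteogenic controls.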
